A study of Mus musculus with 15 samples.

Results

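Heat shock proteins and other chaperones were followed in early mouse embryos of mothers with and without the deubiquitinase USP16 in their oocytes. Members were taken by gene symbol: every listed gene whose symbol began with Hspa, Hspb, Hspd, Hspe, Hsph, Hsp90, Dnaja, Dnajb, Dnajc or Hsf, or with Cct and a digit, and Tcp1. This gave 83 of the 14392 genes in the deposited expression table, comprising 10 HSP70, 3 HSP110 and 3 HSP90 genes, 43 J-domain (HSP40) genes, 10 genes of the cytosolic TRiC/CCT chaperonin group, 2 mitochondrial chaperonin genes, 4 small HSP genes and 4 heat shock factor genes. The other 4, Hspbp1, Hspbap1, Hspb11 and Hsf2bp, carry such symbols without being heat shock proteins or factors themselves. RNA-seq was available for zygotes and 2-cell embryos of either maternal genotype, WT or cKO, with 2 libraries in each of the 4 groups, and each library was made by Smart-seq2 from 10 pooled embryos. The mothers were WT (Usp16+/+) or cKO (Usp16 fl/fl;Gdf9-Cre) mice on a C57BL/6 background. Gdf9-Cre is active in oocytes from the primordial follicle stage, so the floxed allele was deleted in growing oocytes. Juvenile females of both genotypes were superovulated and mated with adult WT males, so all embryos carried a paternal WT allele.

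Chaperones bind unfolded or partly folded proteins and keep them from aggregating. HSP70 proteins work in cycles of ATP hydrolysis that J-domain proteins start and HSP110 proteins, as nucleotide exchange factors, reset. HSP90 acts later on signalling proteins and receptors, and the TRiC/CCT ring folds actin and tubulin. Under stress, heat shock factor 1 binds repeats of the element nGAAn in promoters and raises transcription of these genes. In mouse embryos the HSP70 genes are also known as some of the earliest products of the zygotic genome, made without any heat shock, while oocytes store chaperone mRNA and protein for the cleavage stages.

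The values are FPKM, a fragment count divided by transcript length and by the mapped fragments of the library, and the authors had set every value under 1 to 1. A member at 1 is therefore at the floor, and a fold against a group at the floor is a lower bound. Replicates at the floor also show no spread, so the p-value of such a member can be too small. Of the members, 58 were above the floor in every library, 25 were at it in at least 1, 16 were at it in all 4 zygote libraries, and 23 stayed under 10 FPKM in all 8. Together the members took 0.826% to 0.879% of the summed FPKM of the zygote libraries, 0.686% and 0.840% in WT 2-cell embryos, and 1.19% and 0.689% in cKO 2-cell replicates 1 and 2. Usp16 was at 184 and 187 FPKM in WT zygotes and at 16.8 and 22.0 in cKO zygotes. At the 2-cell stage it was at 168.4 and 183.1 in WT and at 167.7 and 84.8 in cKO replicates 1 and 2. Both cKO values lay below both WT values, but replicate 1 only just. The transcript therefore did not clearly separate the libraries labelled cKO 2-cell from WT. The study reports that the intact paternal allele is expressed again at this stage. The 2-cell libraries are named here by their labels alone. All 10 oocyte markers were above the floor in every library, with a sum of 10923 to 11731 FPKM in zygotes, 6037 and 4907 in WT 2-cell embryos, and 1125 and 2648 in cKO 2-cell embryos. The 8 measured markers of the 2-cell embryo summed to 9.45 to 13.1 in zygotes, 600 and 931 in WT 2-cell embryos, and 187 and 263 in cKO 2-cell embryos. Of 10 cumulus and granulosa markers only 4 were in the table, summing to 21.1 to 43.0 over all libraries. Fshr and Amh were not among them. Cyp19a1 was at 26.7 and 22.3 FPKM in WT zygotes and 22.8 and 22.6 in cKO zygotes, and at most 1.78 in 2-cell embryos. Amhr2 was at the floor in zygotes, at 29.5 and 32.7 in WT and at 18.4 and 17.8 in cKO 2-cell embryos. Foxl2 and Tnfaip6 did not exceed 7.45 in any library. Of the blood markers 2 of 6 and of the sperm markers 4 of 7 were in the table, with sums of 2.00 to 12.3 and 4.00 to 23.1.

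**Figure D1:**
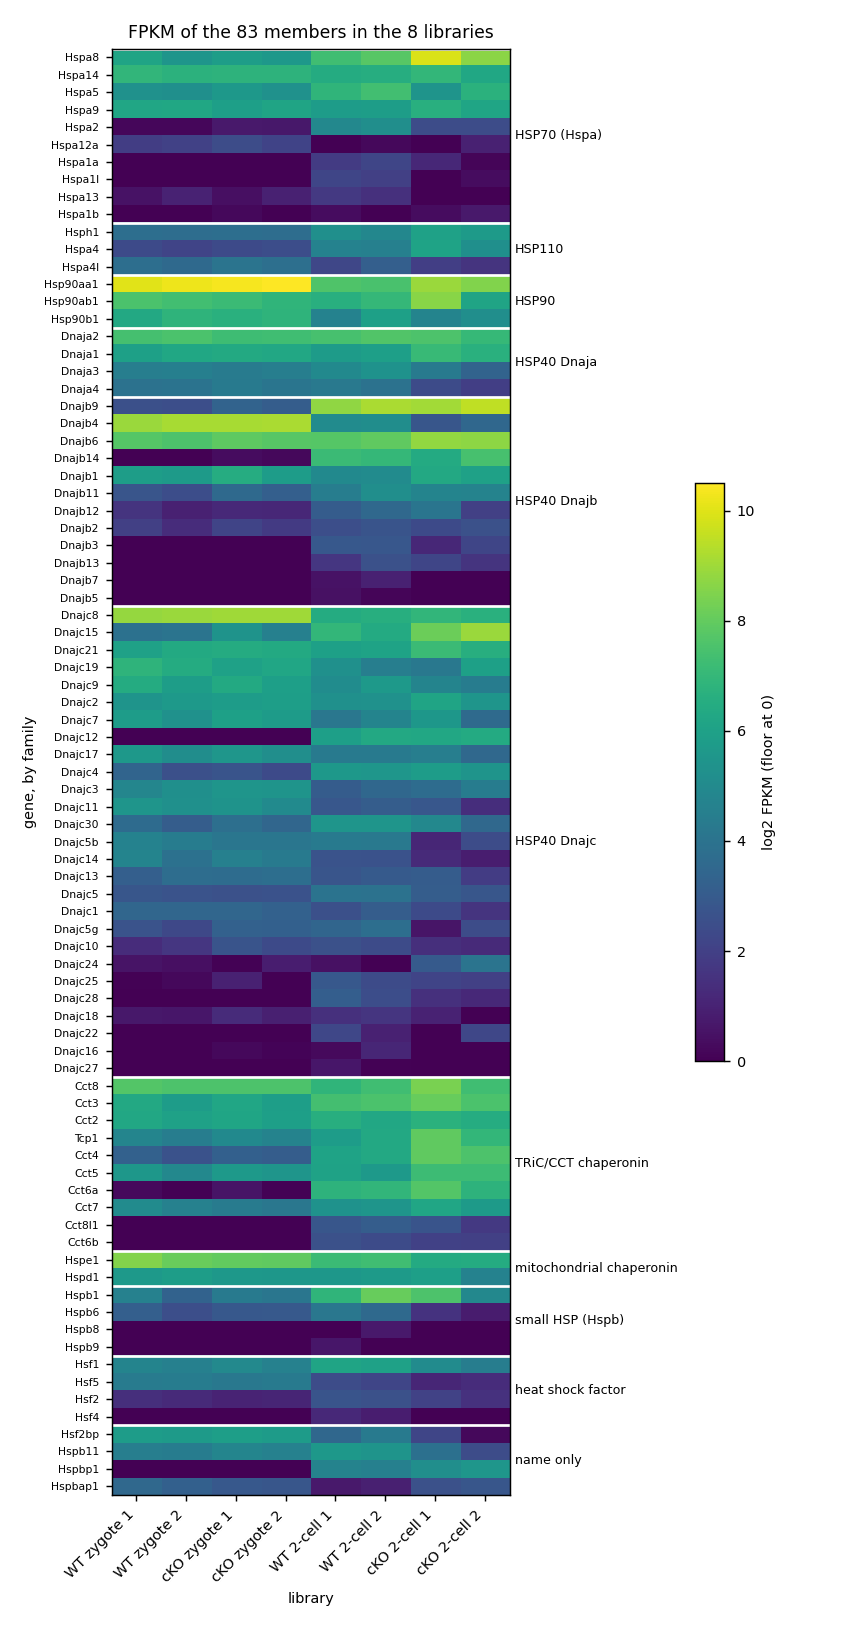
Heat map of the FPKM of the 83 members (rows, by family and by mean level) in the 8 libraries (columns), on a log2 colour scale that starts at 0 for the floor of 1 FPKM. The 2 columns of each zygote group look alike, 16 members are dark in all 4 zygote columns, and the 2 cKO 2-cell columns differ from each other more than the columns of any other group.

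The cKO 2-cell replicates were further apart than those of any other group. Their values differed by more than 2-fold for 22 members and by more than 3-fold for 8, whereas more than 2-fold separated the replicates for 1 member in WT zygotes, 0 in cKO zygotes and 3 in WT 2-cell embryos. The same held over all genes, of which 30.4% differed by more than 2-fold between the cKO 2-cell replicates and 6.79% between the WT 2-cell replicates. The summed FPKM was 770989 in cKO 2-cell replicate 2 and 547752 to 593317 in the other libraries. The largest gaps among members were in Hspb1, at 188 and 30.3 FPKM in cKO 2-cell replicates 1 and 2, in Hsp90ab1, at 404.6 and 69.6, in Dnajc22, at 1 and 4.69, in Dnajb12, at 16.9 and 4.01, and in Hsf2bp, at 4.63 and 1.16. For such members a mean of the cKO 2-cell group says little, and no direction is read for Hspb1, Hsp90ab1, Dnajc22 or Dnajb12. FPKM is relative to each library, and fewer cells with a transcript cannot be told apart from less of it per cell.

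The main comparison asked which members differed between WT and cKO embryos at the 2-cell stage, when the mouse zygotic genome is activated. By limma on log2(FPKM + 1), fitted over all genes and all 8 libraries with Benjamini-Hochberg adjustment, 14 members (16.9%) were higher and 23 (27.7%) lower in cKO embryos, against 6.16% and 24.6% of all genes. The share lower was thus near the background, while the share higher was above it. For each of these 37 members the cKO libraries lay entirely on 1 side of the WT libraries. Counting all members, the libraries did not overlap for 21 higher and 35 lower, or 25.3% and 42.2%, against 14.0% and 43.4% of all genes. Group means more than 3-fold apart, the rule of the study, were found for 4 higher members (Dnajc24, Hspbap1, Hspa8 and Dnajc15) and 11 lower ones (Hspb6, Hspa2, Hsf2bp, Dnajc5b, Hspb11, Dnaja4, Hspa1l, Dnajb4, Dnajc5g, Dnajc14 and Hspa13), or 4.82% and 13.3%, with 2.84% and 13.5% of all genes past this fold. The called members differed in level too. The median WT 2-cell mean was 62.2 FPKM for the 14 higher and 12.3 for the 23 lower, and 11 of the 23 were under 10 FPKM in WT 2-cell embryos against 2 of the 14.

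These calls lean on the spread that the model borrows from the zygotes. With the 4 2-cell libraries fitted alone no member and no other gene passed in either direction. An unadjusted p under 0.05 was still reached by 13 higher and 19 lower members. With library weights for the variance 0 higher members (8 at an unadjusted p under 0.05) and 6 lower ones passed. These weights came out equal for the 2 libraries of each group, from 0.202 in cKO 2-cell embryos to 4.05 in cKO zygotes. They therefore weighted groups and did not set 1 replicate below the other. The 6 were Hspa2, Hspa1l, Dnajb4, Dnajc5b, Hspb11 and Hsf4, with 0.834% and 5.95% of all genes called. Hspa1l and Hsf4 were at the floor in 5 and 6 of the 8 libraries, so the floor sets part of their spread. The split also moved with the scaling, since median-ratio scaling gave 22 higher and 11 lower, with 10.0% and 12.1% of all genes called, and scaling to equal sums gave 5 higher and 26 lower, with 3.86% and 28.3% of all genes called. The medians over all genes were -0.30 as deposited, 0.00 and -0.42 on the log2 scale. None of the 37 changed direction under any scaling or with any 2-cell library left out. Without WT 2-cell replicate 1 the higher members were Cct4, Cct5, Dnajb6, Dnajc24, Hsp90aa1, Hspbap1 and Hsph1, and without replicate 2 they were Cct4, Dnaja1, Dnajb6, Dnajc24 and Hspbap1, while 10 and 13 of the 23 lower members passed. Without cKO 2-cell replicate 1 the calls of Hspa8, Tcp1, Dnajb1, Dnajc21 and Dnajb7 were lost, and without replicate 2 those of Dnajc15, Dnajc14 and Dnajb7. Marker genes moved with these groups too. All 8 measured 2-cell markers lay below WT in both libraries labelled cKO 2-cell, and of the 10 oocyte markers 6 lay below (Zp1, Zp2, Bmp15, Nlrp5, Zar1 and Oosp1), Zp3 lay above and 3 overlapped, and the part of these markers in the differences was not tested.

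**Figure D2:**
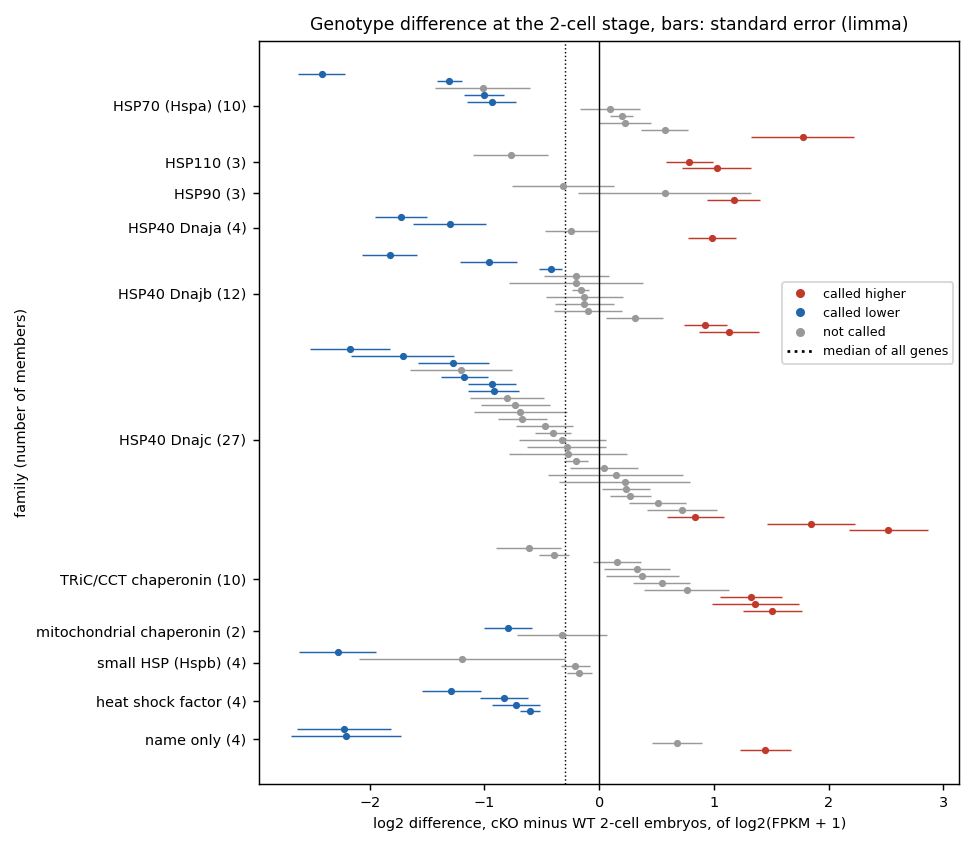
Log2 difference in log2(FPKM + 1) between cKO and WT 2-cell embryos (horizontal axis) of each member, grouped by family (vertical axis), with bars for the standard error from limma, colours for members called higher (red), called lower (blue) or not called (grey), and a dotted line at the median of all genes. The 8 subunits of the TRiC/CCT ring lie right of 0, the 4 heat shock factors lie left of 0, and the J-domain genes reach from -2.17 to 2.52.

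The heat shock factors, the transcription factors of the pathway, were all 4 lower in cKO 2-cell embryos, where 24.6% of all genes were lower. Hsf1, the factor of the classical heat shock response (chr15:76307865-76331402, mm9), was at 26.9 and 23.8 FPKM in WT zygotes, 31.2 and 24.5 in cKO zygotes, 70.6 and 65.3 in WT 2-cell embryos, and 33.7 and 21.9 in cKO 2-cell embryos. Only the WT 2-cell libraries stood apart, and those of the cKO 2-cell embryos overlapped the zygotes. The difference was -1.29 on the log2 scale (SE 0.26, adjusted p = 0.0142, limma), a mean 2.44-fold lower. Hsf2, which acts in gametogenesis and development, was at 6.59 and 6.08 in WT and 4.195 and 2.80 in cKO 2-cell embryos (log2 difference -0.72, SE 0.21, adjusted p = 0.0455, limma). Hsf5, a factor known from the male germ line, was at 5.47 and 4.57 in WT and 2.21 and 2.55 in cKO. Hsf4, known from the lens, was at 2.30 and 1.80 in WT 2-cell embryos and at the floor in all other libraries. Hsf2, Hsf4 and Hsf5 therefore lay within a few FPKM of the floor. After median-ratio scaling only Hsf1 passed of the 4, and with library weights only Hsf4. The calls of Hsf1 and Hsf2 were lost without either WT 2-cell library, and that of Hsf2 also with the replicate block.

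Sequences of the promoters show which of the members with a listed promoter carry the element that these factors bind. RefSeq promoters (250 bases before to 50 after the transcription start, GRCm38.p6) were found for 67 members. They were searched on both strands for a pair of facing repeats, GAANNTTC or TTCNNGAA, and for a triplet, GAANNTTCNNGAA or TTCNNGAANNTTC, each of which contains a pair. A pair was present for 20 of the 67 members (29.9%), against 17.0% of all 27025 genes with a promoter, and a triplet for 4 (5.97%), against 0.662%. Among members with a promoter, a pair was found for 4 of the 11 called higher in cKO 2-cell embryos (Cct5, Dnaja1, Dnajb6 and Hsph1), for 8 of the 18 called lower and for 8 of the 38 not called. Hspa8, Hsp90aa1 and Hspa2 were among the members without a listed promoter. They were not searched, so nothing is read from their absence here. A match is a run of letters and not a measured binding site. Elements of 7 members are shown because they cover both directions of change and the inducible genes that stayed near the floor. They are given with 12 bases on each side, cut at the transcription start, and with the repeats in capitals:
Dnajb6: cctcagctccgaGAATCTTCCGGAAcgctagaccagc
Hspe1: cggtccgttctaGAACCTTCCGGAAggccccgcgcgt
Dnaja1: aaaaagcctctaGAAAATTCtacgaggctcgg
Cct5: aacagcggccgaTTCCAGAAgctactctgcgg
Hsph1: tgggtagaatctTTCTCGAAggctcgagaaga
Dnajb4: gttcgttcgctgTTCTAGAAagtaca
Hspa1a: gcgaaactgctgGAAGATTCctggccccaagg
They lie upstream of the start of each gene, at chr5:29735840-29735876 (plus strand) for Dnajb6, chr1:55088052-55088088 (plus) for Hspe1, chr4:40722332-40722363 (plus) for Dnaja1, chr15:31601861-31601892 (minus) for Cct5, chr5:149636350-149636381 (minus) for Hsph1, chr3:152193846-152193871 (minus) for Dnajb4 and chr17:34972241-34972272 (minus) for Hspa1a, all on GRCm38.p6. The Hspe1 element also lies in the promoter of Hspd1, which starts in the opposite direction, and both promoters hold a second triplet that overlaps it. The triplet of Hsph1 lies after the start and is not shown, so its pair before the start is given. Hspa1b carries the same 32 bases as Hspa1a at chr17:34959323-34959354. Dnajb6, Dnaja1, Cct5 and Hsph1 were called higher in cKO 2-cell embryos, Hspe1, Dnajb4 and Hspa1a lower.

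HSP70 genes went in both directions, with 1 of 10 higher and 4 of 10 lower in cKO 2-cell embryos, against 6.16% and 24.6% of all genes. Hspa8, the constitutive cytosolic HSP70 (chr9:40609067-40613283, mm9), was at 69.8 and 44.1 FPKM in WT zygotes and 57.9 and 49.1 in cKO zygotes, at 157 and 218 in WT 2-cell embryos, and at 970.3 and 413 in cKO 2-cell embryos. The cKO libraries lay above both WT libraries although they differed 2.35-fold from each other. The mean was 3.70-fold higher (log2 difference 1.77, SE 0.45, adjusted p = 0.0304, limma), and the call was lost without either WT 2-cell library or without cKO 2-cell replicate 1. Hspa2, an HSP70 of germ cells and early embryos, went the other way, at 30.3 and 36.9 in WT and 5.41 and 5.47 in cKO 2-cell embryos against 1.13 to 1.66 in all zygotes (log2 difference -2.42, SE 0.21, adjusted p = 0.00146, limma). Hspa1l, a relative of the inducible HSP70 genes best known from testis, was at 4.63 and 3.93 in WT 2-cell embryos, at 1 and 1.27 in cKO 2-cell embryos and at the floor in all zygotes (log2 difference -1.31, SE 0.11, adjusted p = 0.00135, limma). With 5 libraries of Hspa1l at the floor, its small SE and p-value are not read as strength. Hspa13, a microsomal family member, was at 3.32 and 2.72 in WT and at the floor in both cKO 2-cell libraries.

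The stress-inducible pair Hspa1a and Hspa1b stayed close to the floor. Hspa1a was at the floor in all zygotes, at 3.55 and 4.59 FPKM in WT 2-cell embryos, and at 2.27 and 1.12 in cKO 2-cell embryos (log2 difference -0.94, SE 0.21, adjusted p = 0.0215, limma). Hspa1b did not exceed 1.63 in any library. These neighbours on chromosome 17 are near-identical copies, and 61.0% and 62.3% of their 50-base windows also occur elsewhere in the mm9 genome, so reads could be split between them and their values are uncertain. Of the better known HSP70 genes of other compartments, Hspa9 and Hspa5 did not pass. Hspa9, the mitochondrial HSP70, was at 55.9 and 57.8 in WT and 98.8 and 72.9 in cKO 2-cell embryos (adjusted p = 0.0838, limma), and Hspa5 (BiP), the HSP70 of the endoplasmic reticulum, at 117 and 160.0 in WT and 43.4 and 104 in cKO (adjusted p = 0.117, limma). Hspa14, an HSP70 that works at the ribosome, was at 88.0 and 94.1 in WT and 125 and 75.8 in cKO. The cKO libraries of Hspa14 enclosed both WT values.

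The HSP110 genes, partners of HSP70, had 2 of 3 members higher, against 6.16% of all genes. Hsph1 was at 13.5 to 14.0 FPKM in all 4 zygote libraries, at 37.3 and 29.5 in WT 2-cell embryos and at 63.9 and 52.6 in cKO 2-cell embryos (log2 difference 0.79, SE 0.20, adjusted p = 0.0313, limma). Hspa4 was at 4.48 to 5.55 in zygotes, at 25.6 and 23.9 in WT and at 69.0 and 38.0 in cKO 2-cell embryos (log2 difference 1.02, SE 0.30, adjusted p = 0.0478, limma). The call of Hspa4 was near the threshold and was kept under 5 of 13 alternatives, being lost with the replicate block, without a pseudocount, with scaling to equal sums and without either WT 2-cell library among others, whereas that of Hsph1 was kept under 9 of 13. In both genes the order was zygotes, WT 2-cell and cKO 2-cell, with no overlap at either step. Hspa4l, at 4.67 and 9.04 in WT and 3.87 and 3.002 in cKO 2-cell embryos, did not pass (log2 difference -0.77, adjusted p = 0.124, limma).

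Of the HSP90 genes, Hsp90aa1 was the most abundant member in all 4 zygote libraries. This inducible cytosolic HSP90 (chr12:111928815-111940938, mm9) was at 1054 and 1199 FPKM in WT zygotes and 1308 and 1457 in cKO zygotes, then at 195 and 182 in WT 2-cell embryos and 491 and 370.5 in cKO 2-cell embryos. Both cKO 2-cell libraries lay between the zygotes and the WT 2-cell embryos. The cKO mean was 2.28-fold above WT (log2 difference 1.17, SE 0.23, adjusted p = 0.0134, limma). Its constitutive relative Hsp90ab1 was at 98.2 and 130 in WT 2-cell embryos, enclosed by 404.6 and 69.6 in cKO, and its log2 difference of 0.57 (SE 0.75) became -0.69 without cKO 2-cell replicate 1. Hsp90b1, the HSP90 of the endoplasmic reticulum, was at 25.0 and 62.8 in WT and 27.1 and 37.1 in cKO 2-cell embryos.

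**Figure D3:**
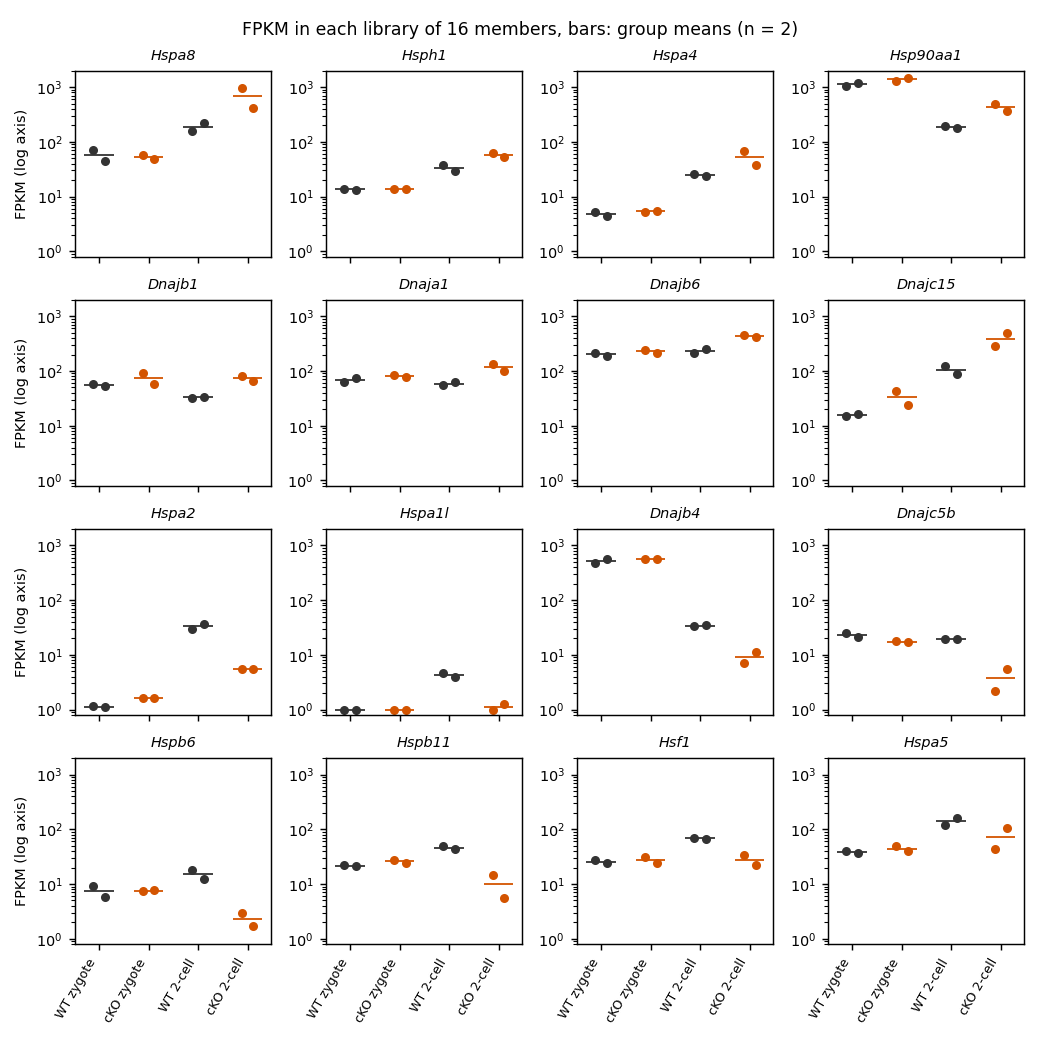
FPKM (log axis) of 16 members in each of the 8 libraries, with WT libraries as dark points, cKO libraries as orange points and a bar at the mean of each group (n = 2). In the upper 8 genes the cKO 2-cell points lie above the WT 2-cell points, in the lower 8 they lie below, and within each genotype's zygotes the points lie close together.

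J-domain genes, whose products deliver clients to HSP70 and start its ATP hydrolysis, were called in both directions within each subfamily. In the Dnaja group, Dnaja1, a farnesylated partner of HSP70, was at 55.0 and 61.8 FPKM in WT and 134 and 101 in cKO 2-cell embryos (log2 difference 0.98, SE 0.21, adjusted p = 0.0174, limma). Dnaja3, its mitochondrial relative, was at 31.9 and 41.3 in WT and 19.5 and 10.2 in cKO, and Dnaja4 was at 18.8 and 15.7 in WT and 5.22 and 3.87 in cKO. Both were lower, by -1.30 (SE 0.32, adjusted p = 0.0267, limma) and -1.73 (SE 0.23, adjusted p = 0.00437, limma) on the log2 scale. Dnaja2, a cytosolic relative, ranged from 130.2 to 199 over all 8 libraries and did not pass in any comparison.

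In the Dnajb group 2 of 12 were higher and 3 lower, against 6.16% and 24.6% of all genes. The share lower was thus near the background. Dnajb1, the principal HSP40 of the cytosol, was at 31.98 and 33.7 FPKM in WT and 81.8 and 65.4 in cKO 2-cell embryos (log2 difference 1.13, SE 0.26, adjusted p = 0.0227, limma). Dnajb6, which holds back polyglutamine aggregates, was at 189 to 248 in all zygote and WT 2-cell libraries and at 447 and 424 in cKO 2-cell embryos (log2 difference 0.93, SE 0.19, adjusted p = 0.0153, limma). Its cKO 2-cell libraries stood above the other 6. Dnajb4 was among the most abundant members of the zygote, at 484 to 573 in all 4 libraries, and was at 33.4 and 35.3 in WT and 7.10 and 11.3 in cKO 2-cell embryos (log2 difference -1.83, SE 0.24, adjusted p = 0.00440, limma). Dnajb3 and Dnajb7 were the other 2 lower members, both at the floor in zygotes and at no more than 7.37 in any library. Dnajb12, a membrane-bound J-domain protein of the endoplasmic reticulum, was at 8.38 and 11.6 in WT and 16.9 and 4.01 in cKO 2-cell embryos.

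The Dnajc group, the most diverse, had 3 of 27 members higher and 6 lower, against 6.16% and 24.6% of all genes. Here too the share lower was near the background. Dnajc24, a J-domain protein of the diphthamide pathway, was at 1 to 1.80 FPKM in all zygote and WT 2-cell libraries and at 7.90 and 16.5 in cKO 2-cell embryos (log2 difference 2.52, SE 0.34, adjusted p = 0.00466, limma). Dnajc15, a protein of the mitochondrial inner membrane, was at 123 and 86.6 in WT and 286 and 489 in cKO 2-cell embryos (log2 difference 1.85, SE 0.38, adjusted p = 0.0159, limma). Dnajc21, which works in ribosome assembly, was at 62.5 and 68.1 in WT and 142 and 97.1 in cKO. Among the lower members were all 3 measured genes of the cysteine string proteins, the J-domain proteins of secretory vesicles. Dnajc5b was at 19.3 in both WT 2-cell libraries and 2.18 and 5.42 in cKO (log2 difference -2.17, SE 0.35, adjusted p = 0.00747, limma), Dnajc5g at 10.8 and 13.7 against 1.53 and 5.41, and Dnajc5 at 15.9 and 15.7 against 8.65 and 6.95. Dnajc10, a disulfide reductase of the endoplasmic reticulum, Dnajc14 and Dnajc28 were the other 3.

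The TRiC/CCT ring needs 8 different subunits (Tcp1, Cct2, Cct3, Cct4, Cct5, Cct6a, Cct7 and Cct8), and their mRNA levels were uneven in zygotes. Cct6a was at 1.20, 1, 1.45 and 1.04 FPKM in the 4 zygote libraries while Cct8 was at 188 to 210, so that the highest subunit was 132 to 193 times the lowest. At the 2-cell stage the ratio was 4.09 and 4.16 in WT and 4.52 and 3.57 in cKO embryos, with Cct7 lowest in all 4 libraries. In WT embryos Cct6a reached 112 and 120 FPKM (log2 difference from zygotes 5.80, SE 0.32, adjusted p = 0.000105, limma) and Cct4, at 6.24 and 9.63 in WT zygotes, reached 69.2 and 80.5 (log2 difference 3.11, SE 0.26, adjusted p = 0.000271, limma). The 8 subunits summed to 397 to 489 FPKM in zygotes, to 725 and 801 in WT 2-cell embryos and to 1630 and 1058 in cKO 2-cell embryos.

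**Figure D4:**
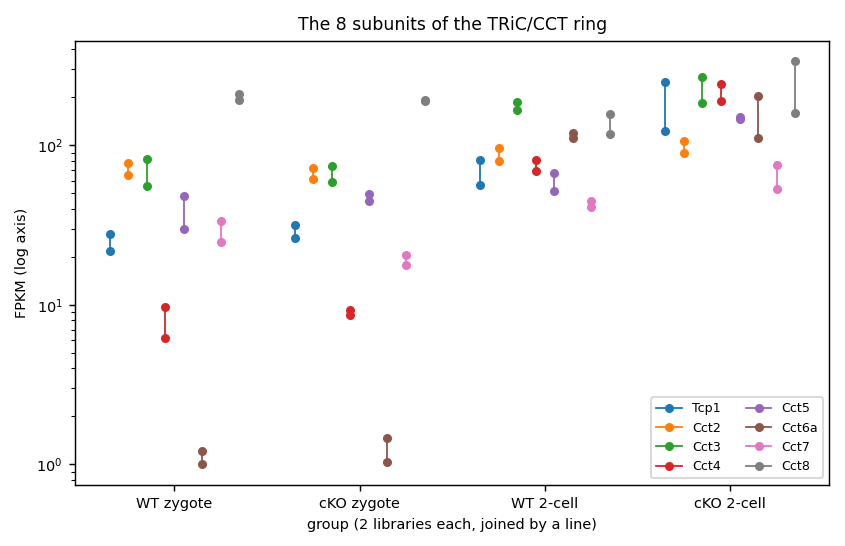
FPKM (log axis) of the 8 subunits of the TRiC/CCT ring in the 4 groups, with the 2 libraries of a group joined by a line and a colour for each subunit. Cct6a and Cct4 lie below the other subunits in zygotes and among them in 2-cell embryos, and Cct4, Cct5 and Tcp1 lie higher in cKO than in WT 2-cell embryos without overlap.

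In cKO 2-cell embryos 3 of the 10 TRiC/CCT genes were higher than in WT and 0 lower, against 6.16% and 24.6% of all genes. Cct4 was at 243 and 189 FPKM in cKO against 69.2 and 80.5 in WT (log2 difference 1.51, SE 0.26, adjusted p = 0.00854, limma), Cct5 at 147 and 150 against 66.6 and 51.4 (1.33, SE 0.27, adjusted p = 0.0149, limma), and Tcp1 at 248 and 124 against 56.3 and 81.1 (1.36, SE 0.38, adjusted p = 0.0387, limma). The other 5 ring subunits had log2 differences between 0.16 for Cct2 and 0.76 for Cct8 and did not pass. The difference of Cct2 was -0.09 after scaling to equal sums, and that of Cct6a was -0.06 without cKO 2-cell replicate 1. Of the 8 ring subunits 7, all but Cct3, were called with median-ratio scaling, 2 (Cct4 and Cct5) with scaling to equal sums, and 0 with library weights or with the 4 libraries alone. Cct6b and Cct8l1, relatives of ring subunits that were at the floor in all zygotes, were at 5.31 to 8.67 in WT and 3.36 to 6.71 in cKO 2-cell embryos and did not pass.

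The mitochondrial chaperonin is a barrel of HSP60 (Hspd1) with a lid of HSP10 (Hspe1), and the genes share a bidirectional promoter on chromosome 1, from which the Hspe1 sequence above was taken. Hspe1 was at 145 and 158 FPKM in WT and 86.1 and 87.5 in cKO 2-cell embryos (log2 difference -0.79, SE 0.21, adjusted p = 0.0326, limma). This call was lost with the replicate block, with median-ratio scaling and without either WT 2-cell library. Hspd1 was at 46.7 and 52.5 in WT and at 60.8 and 25.2 in cKO, which enclosed the WT values (log2 difference -0.33, SE 0.39). In zygotes Hspe1 was at 244 to 372 and Hspd1 at 46.8 to 58.5. Small HSPs bind unfolded proteins without ATP. Hspb1 (HSP27) was at 116 and 264 in WT 2-cell embryos, as far apart as 2.28-fold, and at 188 and 30.3 in cKO. Hspb6 (HSP20) was at 18.2 and 12.1 in WT and 2.92 and 1.73 in cKO 2-cell embryos (log2 difference -2.28, SE 0.33, adjusted p = 0.00571, limma), the widest fold among the lower members at 6.53. Hspb8 and Hspb9 did not exceed 1.66 in any library.

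There were 4 genes that share the symbols without being heat shock proteins or factors. Of these, 1 was higher and 2 were lower in cKO 2-cell embryos, against 6.16% and 24.6% of all genes. Hspbap1, named for a protein that binds HSP27, was at 1.64 and 1.89 FPKM in WT and 6.17 and 6.95 in cKO 2-cell embryos, next to 6.98 to 11.8 in zygotes (log2 difference 1.45, SE 0.22, adjusted p = 0.00648, limma). Hspb11, a subunit of the intraflagellar transport complex, was at 48.6 and 43.8 in WT and 14.8 and 5.45 in cKO 2-cell embryos (log2 difference -2.22, SE 0.41, adjusted p = 0.0110, limma). Hsf2bp, a meiotic recombination factor, was at 53.3 to 60.1 in zygotes, 11.4 and 19.9 in WT and 4.63 and 1.16 in cKO 2-cell embryos (log2 difference -2.21, SE 0.48, adjusted p = 0.0183, limma). Hspbp1, a nucleotide exchange factor of HSP70, was at the floor in all zygotes, at 26.3 and 24.1 in WT and at 36.9 and 45.3 in cKO 2-cell embryos (adjusted p = 0.0575, limma).

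Before the 2-cell stage no member passed. In cKO against WT zygotes limma called 0 of the 83 members, with 0.0208% of all genes called, and 2 members, Dnajc10 and Dnajc15, were higher at an unadjusted p under 0.05, against 324 higher and 84 lower genes overall. No member was past 3-fold, against 0.153% of genes, and the largest log2 differences were 0.97 for Dnajc15 and -0.56 for Cct7. The libraries did not overlap for 20 members higher and 14 lower, or 24.1% and 16.9%, while 15.8% and 10.2% of all genes did so. Dnajc15 was at 14.99 and 16.5 FPKM in WT and 42.3 and 23.8 in cKO zygotes, and Dnajc10 at 2.55 and 3.17 against 6.66 and 5.16. Hsp90aa1, Dnajb4, Dnajc8 and Hspe1, the 4 most abundant members of WT zygotes, had mean ratios of cKO to WT of 1.23, 1.08, 1.10 and 0.773.

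From the zygote to the 2-cell stage of WT embryos 34 members rose and 13 fell by limma, or 41.0% and 15.7%, against 34.2% and 15.5% of all genes. The means were past 3-fold for 25 higher and 11 lower, or 30.1% and 13.3%, against 26.0% and 8.78%. Median-ratio scaling gave 28 that rose and 20 that fell, against 25.0% and 19.1% of all genes. Several genes near the floor in the zygote became some of the most abundant members. Dnajb9, an HSP40 of the endoplasmic reticulum that is induced with the unfolded protein response, went from 5.91 and 5.80 FPKM to 430.0 and 579.9 (log2 difference 6.19, SE 0.25, adjusted p = 8.25e-05, limma). Dnajb14, a membrane J-domain protein of the endoplasmic reticulum, went from the floor to 142 and 127, at least 135-fold higher. Dnajc12, a cytosolic J-domain protein that assists aromatic amino acid hydroxylases, went from the floor to 61.9 and 80.2, at least 71.0-fold higher, and Hspbp1 was at least 25.2-fold higher. Hspb1 went from 24.9 and 9.93 to 116 and 264 (adjusted p = 0.0217, limma).

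Among the members that fell in WT embryos were the 4 most abundant of the WT zygote, Hsp90aa1, Dnajb4, Dnajc8 and Hspe1. Dnajb4 fell 15.3-fold (log2 difference -3.89, SE 0.24, adjusted p = 0.000139, limma) and Hsp90aa1 5.98-fold (-2.57, SE 0.23, adjusted p = 0.000352, limma). Dnajc8, a J-domain protein of the spliceosome, was at 456 and 485 FPKM in WT zygotes and 89.2 and 95.0 in WT 2-cell embryos, 5.11-fold lower. Dnajc11, a mitochondrial membrane protein, fell from 44.4 and 38.9 to 7.20 and 8.52. Dnajc19, of the mitochondrial import motor, fell from 115 and 88.0 to 38.8 and 22.4 (adjusted p = 0.0461, limma), and Hsf5 from 20.4 and 21.1 to 5.47 and 4.57.

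From cKO zygotes to cKO 2-cell embryos 25 members rose and 22 fell, or 30.1% and 26.5%, against 24.6% and 27.1% of all genes, and median-ratio scaling gave 31 and 18, against 24.8% and 24.2%. Dnajb9 reached 525 and 730.1 FPKM, Dnajb14 86.5 and 174, Dnajc12 79.8 and 86.6, and Cct6a 205 and 111. In each of these 4 genes the ranges of the cKO and WT 2-cell libraries overlapped. The count of members that fell was 12 or 14 without cKO zygote replicate 1 or 2. Hsf1, Hspa1l, Hsf4 and Dnajc5, which rose in WT embryos, did not pass in cKO embryos, with log2 differences of -0.02, 0.09, 0.00 and 0.30. They are examples, and other members, among them Hspa5, Hspb1 and Hsf2, also rose in WT and did not pass in cKO embryos. Dnaja4 and Dnajc5b, which did not pass in WT embryos (log2 differences 0.12 and -0.26), fell in cKO embryos by 1.81 and 2.03 on the log2 scale. Passing in 1 genotype alone is not a tested difference between the genotypes. The interaction of genotype and stage, given below, did not pass for Hsf1, Dnajc5 or Dnajc5b (adjusted p = 0.0572, 0.127 and 0.0681, limma).

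The comparisons of stage in WT and of genotype at the 2-cell stage share the WT 2-cell libraries, so no count of members called in both is read, and values are given side by side. Hspa8 had log2 differences of 1.72 between the stages in WT and 1.77 between the genotypes, and Cct4 of 3.11 and 1.51. Hsf1 had 1.39 and -1.29, and Hspa2 4.01 and -2.42. Hsp90aa1 had -2.57 and 1.17, and Dnajb4 -3.89 and -1.83. The interaction of genotype and stage in limma, which tests whether the genotype difference changed between the stages, passed for 2 members in the positive direction (Dnajc24 and Hspbap1) and 8 in the negative (Hspa2, Hspb11, Hspb6, Dnajb4, Dnaja4, Dnajc10, Hspa1l and Hsf4), or 2.41% and 9.64%, against 1.58% and 10.2% of all genes. Hspa1l and Hsf4 were at the floor in all zygotes, so their interaction only repeats their 2-cell difference. Median-ratio scaling gave 8 positive and 4 negative, against 3.13% and 4.45%. Without any 1 of the 4 zygote libraries the interaction calls were lost over nearly all genes, members included.

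Lists of other folding genes, which are not members, were counted in the same fit. Over all genes that fit called 6.16% higher and 24.6% lower in cKO 2-cell embryos. Of 25 co-chaperones of HSP90 and HSP70, 3 were higher in cKO 2-cell embryos (Tomm70a, Ppid and Sugt1) and 5 lower (Fkbp5, Ahsa2, Unc45a, Bag3 and Bag4). Sugt1, an HSP90 co-chaperone, was at 236 and 218 FPKM in WT and 689 and 868 in cKO 2-cell embryos (log2 difference 1.77, SE 0.20, adjusted p = 0.00269, limma). Of 23 folding genes of the endoplasmic reticulum 0 were higher and 10 lower, with a median log2 difference of -1.06 against -0.30 over all genes. Among the 10 were Pdia4, a disulfide isomerase, at 38.1 and 59.0 in WT and 10.1 and 8.67 in cKO, and Herpud1, a target of the unfolded protein response, at 4.74 and 6.15 in WT and 1.05 and 1 in cKO. Among the members of that compartment, Dnajc10 and Hspa13 were lower, while Hspa5, Hsp90b1, Dnajb9, Dnajb11, Dnajb12, Dnajb14 and Dnajc3 did not pass. Of 13 genes of mitochondrial folding and proteolysis 2 were higher (Grpel1 and Yme1l1) and 1 lower (Htra2), and of 13 measured prefoldin and CCT co-factors 2 were higher (Pfdn5 and Txndc9) and 2 lower (Tbcc and Tbcd). In zygotes no gene of these lists passed.

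Many chaperone mRNAs have processed copies in the genome, and reads were trimmed to 50 bases before mapping. Each window of 50 bases in the coding transcripts of the members was therefore searched in the mm9 genome outside the gene. No window occurred elsewhere for 45 members, while over 50% did for 7, namely Dnajb6 (79.1%), Hspa8 (75.7%), Hsp90aa1 (73.1%), Hspb1 (63.0%), Hspa1b (62.3%), Hspa1a (61.0%) and Hspd1 (58.5%). Hspe1 followed with 46.5%, Dnaja1 with 25.0% and Tcp1 with 12.4%. The share was 2.59% for Cct4 and 0.768% for Dnajb1, and Hsph1, Hspa4 and Cct5 had no such window. Among the 66 members with under 10% of windows elsewhere 9 were higher and 20 lower in cKO 2-cell embryos. Among the other 17 members 5 were higher and 3 lower. The shares over all genes were 6.16% higher and 24.6% lower. How the mapping and quantification assigned such reads was not tested.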

How the data were processed

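RNA-seq libraries of 10 pooled embryos were made by Smart-seq2 in the study, with 2 libraries in each of 4 groups. The authors trimmed the reads to 50 bases, mapped them to mm9 with TopHat 2.1.1 and computed FPKM with Cufflinks 2.2.1. The deposited FPKM table left out genes under 1 in all samples and set values under 1 to 1. The annotation and strand setting are not given in the sources used here. FPKM hold no counts, so the depth per library is unknown and no counting interval is given. ChIP-seq samples were not analysed here.

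Groups and replicate numbers follow the labels. The members and the gene lists were chosen with earlier results of these data known. log2(FPKM + 1) of all 14392 genes was fitted with limma 3.58.1 (R 4.3.3), 1 mean for each group, 4 residual degrees of freedom and moderated variances, and p-values were adjusted over all genes (Benjamini-Hochberg, threshold 0.05). This test is on log values because an exact permutation of 2 against 2 libraries cannot give a p under 0.333. Nothing in the labels says that libraries came from separate mothers, so p-values measure only the spread between these libraries. Folds are ratios of mean FPKM, and the study's 3-fold rule was counted beside limma. For each gene the main fit takes 1 spread for all groups, whereas the library weights ran from 0.202 in cKO 2-cell embryos to 4.05 in cKO zygotes. How far this unequal spread, or values at the floor, moved the error rate of the main fit was not tested.

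Genes were named if they were core members fixed by role (the inducible and constitutive HSP70 and HSP90 genes, HSP110, mitochondrial chaperonins, Hspb1, Dnaja1, Dnajb1, TRiC, Hsf1 and Hsf2), among the 8 largest non-overlapping calls per direction of a comparison, among the 3 most abundant of a family, among the 5 with the widest cKO 2-cell replicates, or past 3-fold between genotypes. Members outside this rule that complete a count, and the genes of other lists given with values, were named after their values were seen.

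Alternatives were no pseudocount, a pseudocount of 5, a mean of at least 5 FPKM, median-ratio scaling, scaling to equal sums, library weights, the 4 libraries of a comparison alone, a replicate block, a 2-fold rule and leaving out each library. Promoter motifs, mm9 positions (GENCODE M1) and shared windows were computed with Python 3.11.15 (numpy 2.4.6, pandas 2.3.3), and figures with matplotlib 3.10.9.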

Additional observations from a re-analysis of the deposited data

Results flagged for a closer look

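For 10 members the genotype difference in log2(FPKM + 1) changed between the zygote and the 2-cell stage by the interaction term of limma, with 2 libraries in each group. The change was positive for Dnajc24, at 2.53 (adjusted p = 0.0290, limma), and for Hspbap1, at 1.93 (adjusted p = 0.0201, limma). It was negative for Hspa2, at -2.73 (adjusted p = 0.00818, limma), and for Hspa1l, at -1.31 (adjusted p = 0.00968, limma). The negative changes of Dnaja4, Dnajb4 and Dnajc10 were -1.92, -1.95 and -1.76 (adjusted p = 0.0214, 0.0237 and 0.0242, limma). Those of Hspb6, Hsf4 and Hspb11 were -2.32, -0.60 and -2.48 (adjusted p = 0.0334, 0.0341 and 0.0455, limma). Hspa1l and Hsf4 were at the floor in all zygotes, so their change equals their 2-cell difference and no measured zygote difference enters it. Dnajc10 was the 1 member of the 10 that was also higher in cKO zygotes at an unadjusted p under 0.05. With library weights Hspa2, Hspa1l, Dnajb4 and Hspb11 passed. With any zygote library left out the interaction calls were lost over nearly all genes, these 10 included. Groups of 2 libraries were too small for a test of single outlying libraries.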

How the results depend on the processing

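At the 2-cell stage the 14 higher members became 22 with median-ratio scaling, 5 with scaling to equal sums, 0 with library weights, 0 with the 4 libraries alone and 5 to 20 with a library left out. The 23 lower became 14 with a mean of at least 5 FPKM, 11 with median-ratio scaling, 6 with library weights, 0 with the 4 libraries alone and 16 to 31 with a library left out. The 34 members that rose in WT embryos became 22 with the filter on the mean and 25 to 30 with a library left out, and the 13 that fell became 20 with median-ratio scaling and 9 to 11 with a library left out. The 22 that fell in cKO embryos became 13 with the 4 libraries alone and 12 to 26 with a library left out. The 10 interaction calls became 4 with library weights and 0 to 27 with a library left out, 0 without any zygote library. No zygote call appeared under any alternative run. The filter on the mean took members with a low mean out of the test, and no main call was lost among those still tested. With this filter 9.92% of the tested genes were higher and 29.0% lower at the 2-cell stage. With the 4 2-cell libraries alone no gene passed at all. The shares of all genes called moved with these settings too, so the changes in count are not read as results about the members.

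For means past 3-fold at the 2-cell stage, the 4 higher members became 12 at 2-fold, 2 where each library had to pass and 9 with median-ratio scaling, and the 11 lower became 21, 5 and 5, 7 with 1 added to both means and 10 to 17 with a library left out (17 without cKO 2-cell replicate 1). In WT embryos the 25 higher became 16 with the filter on the mean, and the 11 lower became 7 where each library had to pass. The shares of all genes under these fold alternatives were not computed, so the counts are not read as results about the members.

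None of the 2-cell calls turned in sign. Log2 differences that did turn were of members not called, Cct2 (-0.093 with scaling to equal sums), Cct6b (0.0013 with median-ratio scaling), Hsp90b1 (0.15 with median-ratio scaling, -0.96 to 0.33 with a library left out), Hspd1 (0.14, -0.94 to 0.29), Cct6a (-0.063 to 0.82 with a library left out), Hsp90ab1 (-0.69 to 1.83) and Hspb1 (-2.49 to 0.10). The cause was not tested.

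The replicate block gave 12 higher and 21 lower at the 2-cell stage, 0 in zygotes, 34 and 13 in WT embryos, 26 and 20 in cKO embryos and 8 interaction calls. Deviations of same-numbered libraries correlated at 0.497 between the zygote groups and -0.239 between the 2-cell groups, so the numbers were not taken to pair the samples. A block with crossed numbers, added after seeing the data, gave 13 and 22 at the 2-cell stage.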
